A study of Mus musculus with 31 samples.

Results

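The miR-17-92 cluster is a group of miRNAs cut from 1 long primary transcript. Its members were taken by name from the small RNA table: every row that begins with miR-17, miR-18a, miR-19a, miR-19b, miR-20a or miR-92a, in all 16 libraries. This gave 13 mature miRNAs of the 507 in the table, namely miR-17-5p, miR-17-3p, miR-18a-5p, miR-18a-3p, miR-19a-5p, miR-19a-3p, miR-20a-5p, miR-20a-3p, miR-19b-1-5p, miR-19b-3p, miR-92a-1-5p, miR-92a-2-5p and miR-92a-3p. The suffixes 5p and 3p name the arm of the hairpin from which a miRNA is cut.

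The study sequenced small RNAs of mouse embryonic stem cells (mESCs) of the ES-E14TG2a background in 4 genotypes, each with 4 biological replicates. Trim71 is an RNA-binding protein of stem cells, and *Ago2* encodes an Argonaute protein, the protein that holds the miRNA in the silencing complex. The WT cells carry a FLAG tag on both copies of Trim71. The CLIPΔ cells were made from them by deleting the stretch of the *Ago2* 3'UTR that Trim71 binds. The *Ago2* KO cells lack *Ago2*, and the *Ago2* KO/CLIPΔ cells carry both deletions. The study's methods describe the edited lines as clones grown from single sorted cells, and the labels do not say which clone gave which library, so a line and its edit cannot be told apart. RNA-seq of the same genotypes had 2 libraries each for WT and CLIPΔ and 4 each for *Ago2* KO and *Ago2* KO/CLIPΔ.

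In animals, a polycistronic primary transcript is cut by the Drosha and Dgcr8 complex into hairpins, which Dicer trims to short duplexes. One strand of each duplex is loaded into an Argonaute protein, and the other is usually lost, so that miRNAs of 1 transcript can end at very different levels. The cluster is driven by Myc and E2f transcription factors, is abundant in stem cells and in many tumours (hence its older name oncomir-1), and its reported targets include the pro-apoptotic Bcl2l11 and the cell cycle inhibitor Cdkn1a. A miRNA finds its targets mainly through its seed, bases 2 to 8 from the 5′ end, and miRNAs with the same seed are counted as 1 family.

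RefSeq sequences (mouse build GRCm38.p6) matched 12 of the 13 mature members and are printed here because the comparisons turn on members that differ by 1 or a few bases. The seed is in capitals. The upper pair shares a seed, and the miRNA under it differs from both at 1 seed base:

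miR-17-5p: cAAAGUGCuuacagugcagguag
miR-20a-5p: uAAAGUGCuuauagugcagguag
miR-18a-5p: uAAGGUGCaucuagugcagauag

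miR-19a-3p and miR-19b-3p form a second seed family, and miR-92a-3p carries another seed:

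miR-19a-3p: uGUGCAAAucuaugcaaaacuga
miR-19b-3p: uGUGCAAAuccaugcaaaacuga
miR-92a-3p: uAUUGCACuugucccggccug

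The opposite arms, by contrast, have seeds that no other member shares:

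miR-17-3p: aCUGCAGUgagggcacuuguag
miR-18a-3p: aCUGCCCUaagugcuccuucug
miR-20a-3p: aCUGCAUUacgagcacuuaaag
miR-19b-1-5p: aGUUUUGCagguuugcauccagc
miR-92a-1-5p: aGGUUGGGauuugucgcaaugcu
miR-92a-2-5p: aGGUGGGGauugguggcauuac

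Counted from 1 at the 5′ end, miR-17-5p and miR-20a-5p differ by the 2 substitutions C1U and C12U, which both lie outside the seed. miR-19a-3p and miR-19b-3p differ by U11C alone. Between miR-17-5p and miR-18a-5p there are 6 substitutions, of which A4G is the one in the seed. The nearest neighbour of miR-17-5p in the table is miR-106a-5p of the chromosome X cluster, with 1 substitution (U10A), so reads of this pair with a sequencing error at that base could be assigned to either.

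All 6 hairpins of the cluster lie on the plus strand of chromosome 14 within 836 nt, at chr14:115043671-115044506 (GRCm38, the same sequence as mm10, to which the authors mapped), in the order Mir17, Mir18, Mir19a, Mir20a, Mir19b-1 and Mir92-1. The gaps between them are 35 to 96 nt. Each hairpin falls inside an exon of the non-coding host gene Mir17hg (chr14:115042879-115046727, transcript Mir17hg-201 of GENCODE M21). None of the 498 Trim71 CLIP-seq peaks lies in Mir17hg. miR-92a-2-5p is the exception among the members, since it comes from Mir92-2 on chromosome X (chrX:52741838-52741928), in the paralogous miR-106a-363 cluster. The mature miR-19b-3p and miR-92a-3p are encoded at 2 places, on chromosomes 14 and X, so their values mix both clusters and are not comparable in level with those of the other members.

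**Figure D1:**
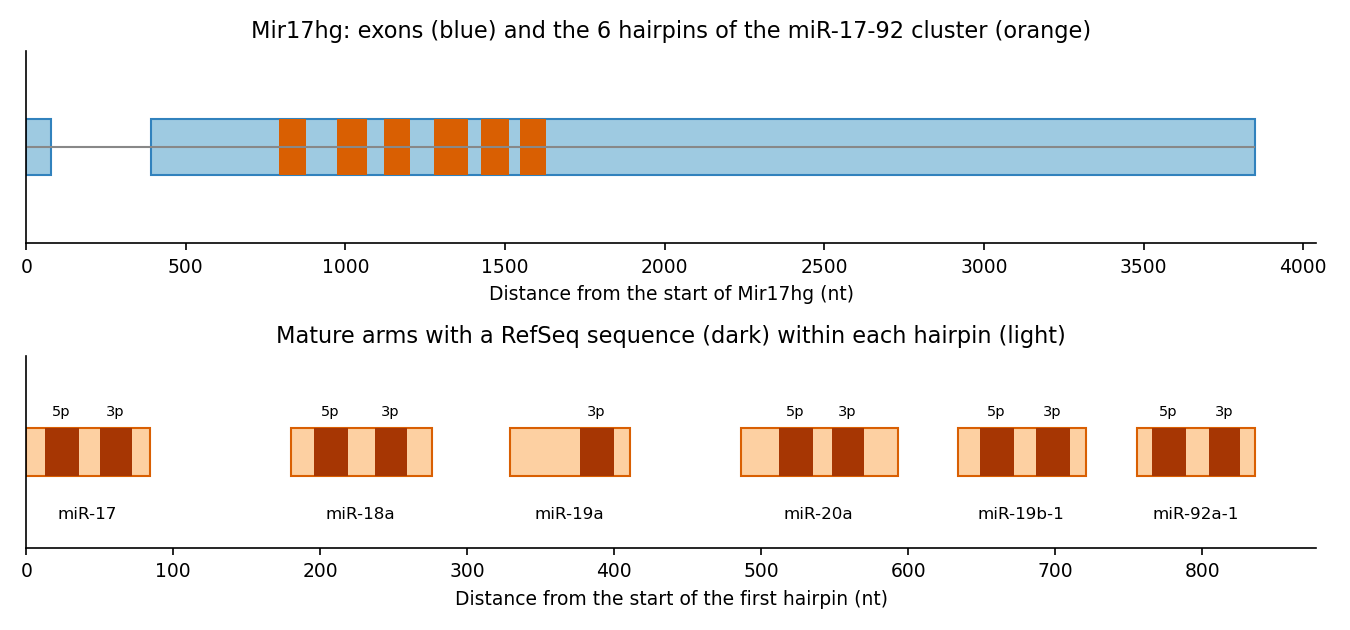
Map of the Mir17hg locus, drawn to scale as distance from the start of the gene (top, nt) and from the start of the first hairpin (bottom, nt). The 6 orange hairpins span 836 nt of an exon of the host gene (blue), and dark bars mark the mature arms that have a RefSeq sequence.

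The deposited values were TPM, and each library was rescaled so that its 507 miRNAs sum to 1000000, and all miRNA levels below are on this scale. The steps between low values gave about 5494196 to 8423184 miRNA reads in the WT libraries and 3168710 to 7950864 in CLIPΔ. They gave 853042 to 1114013 in *Ago2* KO and 898917 to 1358033 in *Ago2* KO/CLIPΔ. The *Ago2* KO genotypes thus held fewer reads of the 507 miRNAs. Whether fewer reads were sequenced in all, or fewer of them were miRNAs, was not tested. The *Ago2* KO and *Ago2* KO/CLIPΔ libraries are named by number where the others are named by letter. *Ago2* genotype, number of miRNA reads and library set therefore cannot be told apart. The CLIPΔ small RNA columns carry the code d3, which was read as CLIPΔ because the other 3 genotypes were accounted for. The RNA-seq libraries held 5 of 6 stem cell markers (Sox2 was not listed), with a summed level of 4798 to 5871 TPM. Markers of lineage-committed cells summed to 9.24 to 26.0 TPM (20.8 to 26.0 in WT, 14.7 to 18.1 in CLIPΔ, 9.24 to 13.1 in *Ago2* KO and 12.2 to 13 in *Ago2* KO/CLIPΔ). The 2 feeder markers listed, of 4, summed to at most 2.21 TPM. The part of either in the results was not tested.

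In WT mESCs the cluster was led by miR-17-5p and miR-20a-5p, the members of the AAAGUGC seed family. miR-17-5p stood at 5388, 4622, 5423 and 4152 TPM in libraries A to D and ranked 29 of 507. miR-20a-5p stood at 3203, 3043, 3300 and 2005 TPM. miR-92a-1-5p, the arm opposite miR-92a-3p, followed at 1064, 727, 1229 and 1354 TPM. These 3 levels did not overlap. Among the 10 members cut only from chromosome 14, miR-17-5p made up 48.1% ± 0.60 (SD, n = 4) of the summed level in WT, miR-20a-5p 28.2% ± 3.7 and miR-92a-1-5p 10.9% ± 3.4.

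Next in order were miR-18a-5p (354 to 550 TPM), miR-19a-3p (314 to 368 TPM) and miR-17-3p (289 to 314 TPM), neighbours whose ranges met. miR-18a-3p ranged from 118 to 242 TPM and miR-92a-2-5p from 46.1 to 103 TPM. The lowest members were miR-19b-3p (20.5 to 36.0 TPM) and miR-19b-1-5p, miR-19a-5p and miR-20a-3p, whose ranges overlapped between 7.62 and 17.6 TPM. Members of 1 transcript thus differed in WT from a mean of 11.9 TPM for miR-20a-3p to 4896 TPM for miR-17-5p. The highest value of all belonged to miR-92a-3p, at 11850 ± 2976 TPM (SD, n = 4), which is read from both of its loci and ranked 15 of 507.

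The members made up a part of some seed families and the whole of others. miR-17-5p and miR-20a-5p gave 27.5% of the summed WT level of the 6 miRNAs with seed AAAGUGC, the others being miR-20b-5p, miR-106a-5p, miR-93-5p and miR-106b-5p. miR-18a-5p gave 62.1% of the AAGGUGC family, which it shares with miR-18b-5p, and miR-92a-3p gave 27.8% of the 6 miRNAs with seed AUUGCAC. The GUGCAAA seed had no other source in the table than miR-19a-3p and miR-19b-3p, and the seeds of miR-18a-3p, miR-20a-3p, miR-19b-1-5p, miR-92a-1-5p and miR-92a-2-5p stood in no other miRNA matched. The 6 bases AAGUGC within the seed of miR-17-5p also stand in the seed of the dominant stem cell miRNAs miR-294-3p and miR-295-3p, of which miR-295-3p alone averaged 224776 TPM in WT.

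**Figure D2:**
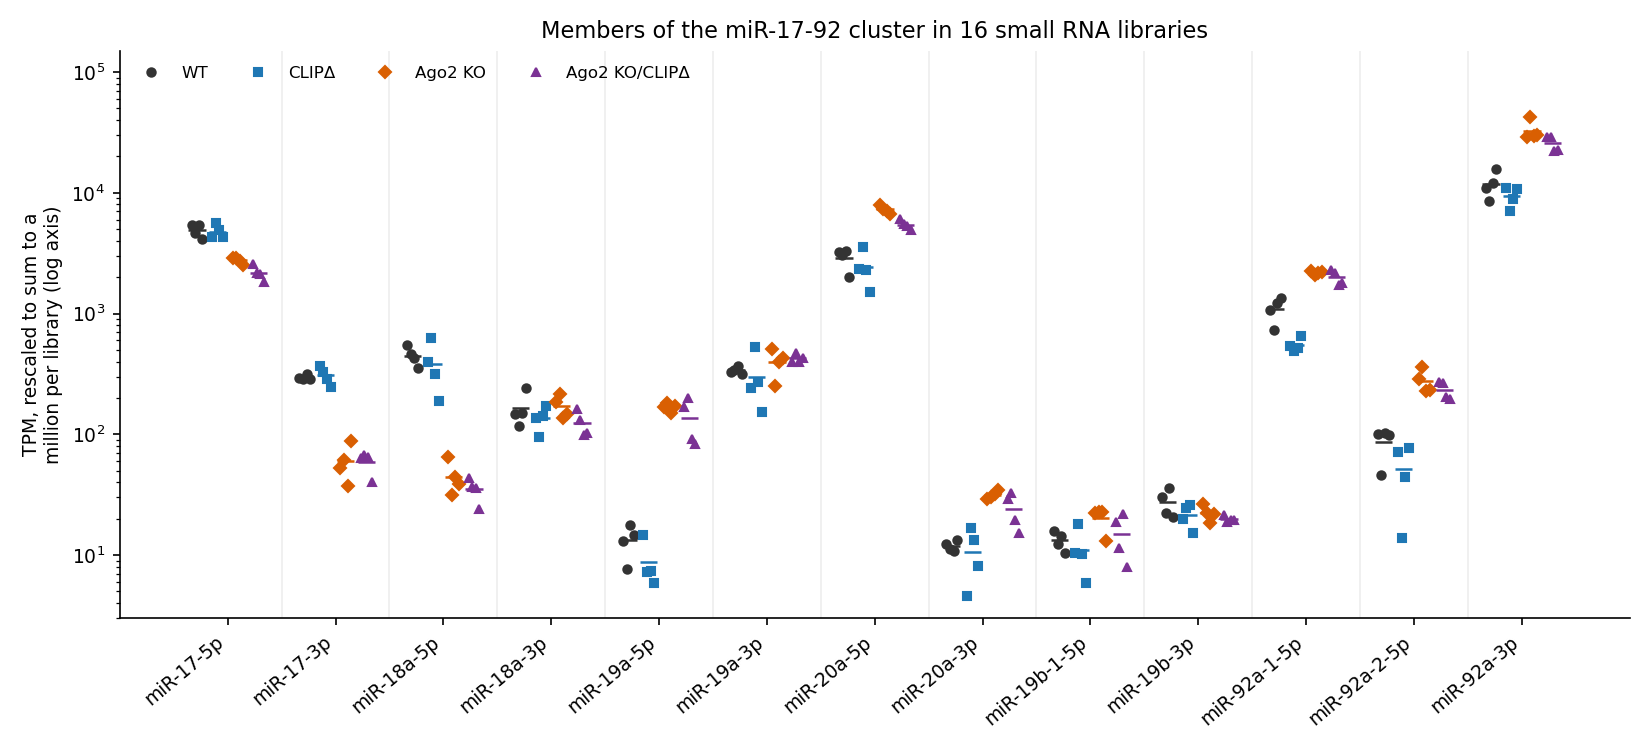
Level of each member in the 16 small RNA libraries (rescaled TPM on a log axis), with 1 point per library and a line at each genotype's mean. Read from left to right in hairpin order, miR-17-5p, miR-17-3p and miR-18a-5p sit lower in the *Ago2* KO genotypes than in WT and CLIPΔ, while miR-19a-5p, miR-20a-5p and the miR-92a members sit higher.

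The comparison of CLIPΔ with WT asks whether loss of the Trim71-binding region in *Ago2* mRNA alters the cluster. 1 member fell, miR-92a-1-5p, and no member rose. miR-92a-1-5p stood at 534, 488, 517 and 657 TPM in CLIPΔ libraries A to D, each below every WT library, and fell by 0.96 on the log2 scale (SE 0.22, adjusted p = 0.00939 by limma over 227 miRNAs tested). Its partner on the same hairpin, miR-92a-3p, was at 11030, 7050, 8923 and 10843 TPM in CLIPΔ against 10993, 8628, 11998 and 15779 TPM in WT, and the groups overlapped (log2 change -0.31, SE 0.22, adjusted p = 0.323). Of the 8 members that passed the filter of a mean of 100 TPM, 1 was called, beside 27.8% of all miRNAs tested (8.37% lower and 19.4% higher).

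The abundant guide miRNAs of the cluster differed by less than the spread between replicates. miR-17-5p was at 4305, 5627, 4885 and 4261 TPM in CLIPΔ, within the WT range but for 1 library (log2 change -0.04, SE 0.17, adjusted p = 0.872). Its sign turned (0.05) when let-7 and miR-98 were left out of the scaling sum. Together let-7 and miR-98 made up 0.720% ± 0.38 (SD, n = 4) of the miRNA total in WT and 6.53% ± 0.59 in CLIPΔ. miR-20a-5p was at 2347, 3528, 2286 and 1500 TPM (log2 change -0.30, SE 0.27, adjusted p = 0.459). miR-18a-5p was at 398, 630, 317 and 188 TPM, with library B highest and D lowest (log2 change -0.34, SE 0.33, adjusted p = 0.488). For miR-18a-3p, miR-19a-3p and miR-17-3p the log2 changes were -0.25, -0.33 and 0.05, and the last turned to -0.15 when libraries were centred on their medians. The median log2 change of the 8 members was -0.30, beside 0.04 over all miRNAs tested. With replicate letters as a block, 125 miRNAs were called in place of 63, and miR-92a-1-5p was again the member called.

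The members below the filter gave no call in a fit without it. miR-19a-5p was at 14.8, 7.24, 7.37 and 5.86 TPM in CLIPΔ and 13, 7.62, 17.6 and 14.7 TPM in WT. miR-92a-2-5p, the chromosome X relative of miR-92a-1-5p, was at 71.8, 13.7, 44.7 and 77.5 TPM against 99.6, 46.1, 103 and 98.7 TPM, with the lowest value of each genotype in library B (log2 change -0.92, SE 0.50, adjusted p = 0.199).

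The same deletion in cells without *Ago2* was compared as *Ago2* KO/CLIPΔ against *Ago2* KO. No member passed in the fit over all 16 libraries, beside 22.1% of the 249 miRNAs tested (55 miRNAs, 19.3% higher and 2.81% lower), and 1 of the 9 members had an unadjusted p under 0.05, beside 30.5% of all. The median log2 change over all miRNAs was -0.14 in this contrast. miR-17-5p was at 2564, 2174, 2124 and 1821 TPM against 2892, 2898, 2744 and 2535 TPM, with 3 of the 4 libraries below the *Ago2* KO range (log2 change -0.36, SE 0.14, adjusted p = 0.0769). miR-20a-5p was at 6052, 5462, 5284 and 4895 TPM against 7949, 7406, 7101 and 6717 TPM, with no overlap (log2 change -0.43, SE 0.21, adjusted p = 0.174). miR-92a-1-5p, which fell in CLIPΔ, was at 2291, 2168, 1719 and 1781 TPM against 2250, 2091, 2186 and 2226 TPM, with overlapping groups (log2 change -0.15, SE 0.18, adjusted p = 0.613).

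The number of calls in this contrast depended on the fit. With replicate numbers as a block, 144 of 232 miRNAs were called (50 higher and 94 lower), and 4 of the 8 members tested fell. They were miR-17-5p (adjusted p = 0.00172), miR-18a-3p (log2 change -0.46, adjusted p = 0.00524), miR-20a-5p (adjusted p = 0.000118) and miR-92a-3p (log2 change -0.34, adjusted p = 0.00399). The same 4 passed when the fit held the 2 groups alone, where 121 of 232 miRNAs were called (50 higher and 71 lower). The 8 members of these fits differ from those tested over all 16 libraries. miR-19a-5p passed the filter through its level in the *Ago2* KO genotypes, whereas miR-17-3p and miR-18a-5p were below it there and were not tested. miR-17-5p also passed without *Ago2* KO/CLIPΔ library 1 (adjusted p = 0.0453). miR-92a-1-5p did not pass with the block (adjusted p = 0.161).

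Whether the deletion acted differently with and without *Ago2* was tested as an interaction. It was called for miR-92a-1-5p alone among the 9 members tested, beside 49.4% of all miRNAs tested (22.9% higher and 26.5% lower, with a median of -0.13). The change of miR-92a-1-5p on deletion was 0.82 higher on the log2 scale in cells without *Ago2* (SE 0.25, adjusted p = 0.0106). For the other 8 members the interaction lay between -0.32 (miR-17-5p, adjusted p = 0.197) and 0.70 (miR-92a-2-5p, adjusted p = 0.353). The latter passed with the replicate block (adjusted p = 0.0327), where 161 of 249 miRNAs were called (72 higher and 89 lower). However, miR-92a-2-5p was tested here only because its level in the *Ago2* KO genotypes carried it past the filter. miR-19a-3p passed without CLIPΔ library B (0.79, adjusted p = 0.0363), the library in which it was highest.

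The loss of *Ago2* itself was compared as *Ago2* KO against WT. Members of the cluster moved in opposite directions: 3 of the 9 tested fell and 4 rose, beside 82.7% of all miRNAs called (35.3% lower and 47.4% higher), so that a call as such was common in this contrast. The 4 include miR-92a-2-5p, which was tested only because its level in the *Ago2* KO genotypes carried it past the filter. The median log2 change over all miRNAs tested was 0.37, and the direction of each called member was the same when libraries were centred on their medians.

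The members called lower came from the hairpins Mir17 and Mir18, although miR-18a-3p of Mir18 was not called. Whether the change depended on position along the transcript was not tested. miR-18a-5p was at 64.2, 31.7, 44.0 and 38.4 TPM in *Ago2* KO libraries 1 to 4 against 550, 464, 424 and 354 TPM in WT, a fall of 3.33 on the log2 scale (SE 0.30, adjusted p = 1.70e-08). miR-17-3p was at 52.6, 61.7, 37.6 and 88.5 TPM against 294, 289, 314 and 289 TPM (log2 change -2.35, SE 0.22, adjusted p = 3.08e-08). miR-17-5p, the leading member in WT, was at 2892, 2898, 2744 and 2535 TPM, below every WT library (log2 change -0.82, SE 0.14, adjusted p = 3.51e-05). These low values rest on few reads, about 35 to 55 for miR-18a-5p and 35 to 77 for miR-17-3p in each *Ago2* KO library.

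The tested members called higher came from the hairpins Mir20a and Mir92-1, and from Mir92-2 on chromosome X. miR-20a-5p was at 7949, 7406, 7101 and 6717 TPM, each above every WT library (log2 change 1.36, SE 0.21, adjusted p = 1.07e-05), so that it took the place of miR-17-5p as the most abundant single-locus member. miR-92a-1-5p was at 2250, 2091, 2186 and 2226 TPM (log2 change 1.04, SE 0.18, adjusted p = 3.14e-05). miR-92a-3p was at 29227, 42016, 29367 and 30210 TPM (log2 change 1.48, SE 0.19, adjusted p = 1.17e-06), with library 2 above the others. miR-92a-2-5p was at 285, 360, 226 and 233 TPM (log2 change 1.70, SE 0.41, adjusted p = 0.000881), and it passed the filter over the 16 libraries only through its level in the *Ago2* KO genotypes.

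2 members tested were not called in this contrast. miR-18a-3p was at 184, 215, 137 and 147 TPM against 148, 118, 149 and 242 TPM in WT (log2 change 0.08, SE 0.24, adjusted p = 0.752), although its partner arm miR-18a-5p fell. miR-19a-3p was at 513, 249, 393 and 429 TPM against 331, 337, 368 and 314 TPM (log2 change 0.18, SE 0.28, adjusted p = 0.541). The sign of both turned with median centring.

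The fit without a filter gave values for the 4 scarce members. miR-19a-5p, the arm opposite miR-19a-3p, was at 168, 182, 149 and 170 TPM in *Ago2* KO against 13, 7.62, 17.6 and 14.7 TPM in WT (log2 change 3.61, SE 0.31, adjusted p = 4.38e-09). It had the largest log2 change of the 13 members in this contrast. miR-20a-3p was at 29.4, 30.4, 32.2 and 34.5 TPM against 12.4, 11.2, 10.8 and 13.2 TPM (log2 change 1.34, SE 0.31, adjusted p = 0.000764). miR-19b-1-5p (log2 change 0.55, adjusted p = 0.138) and miR-19b-3p (log2 change -0.26, adjusted p = 0.311) did not pass.

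**Figure D3:**
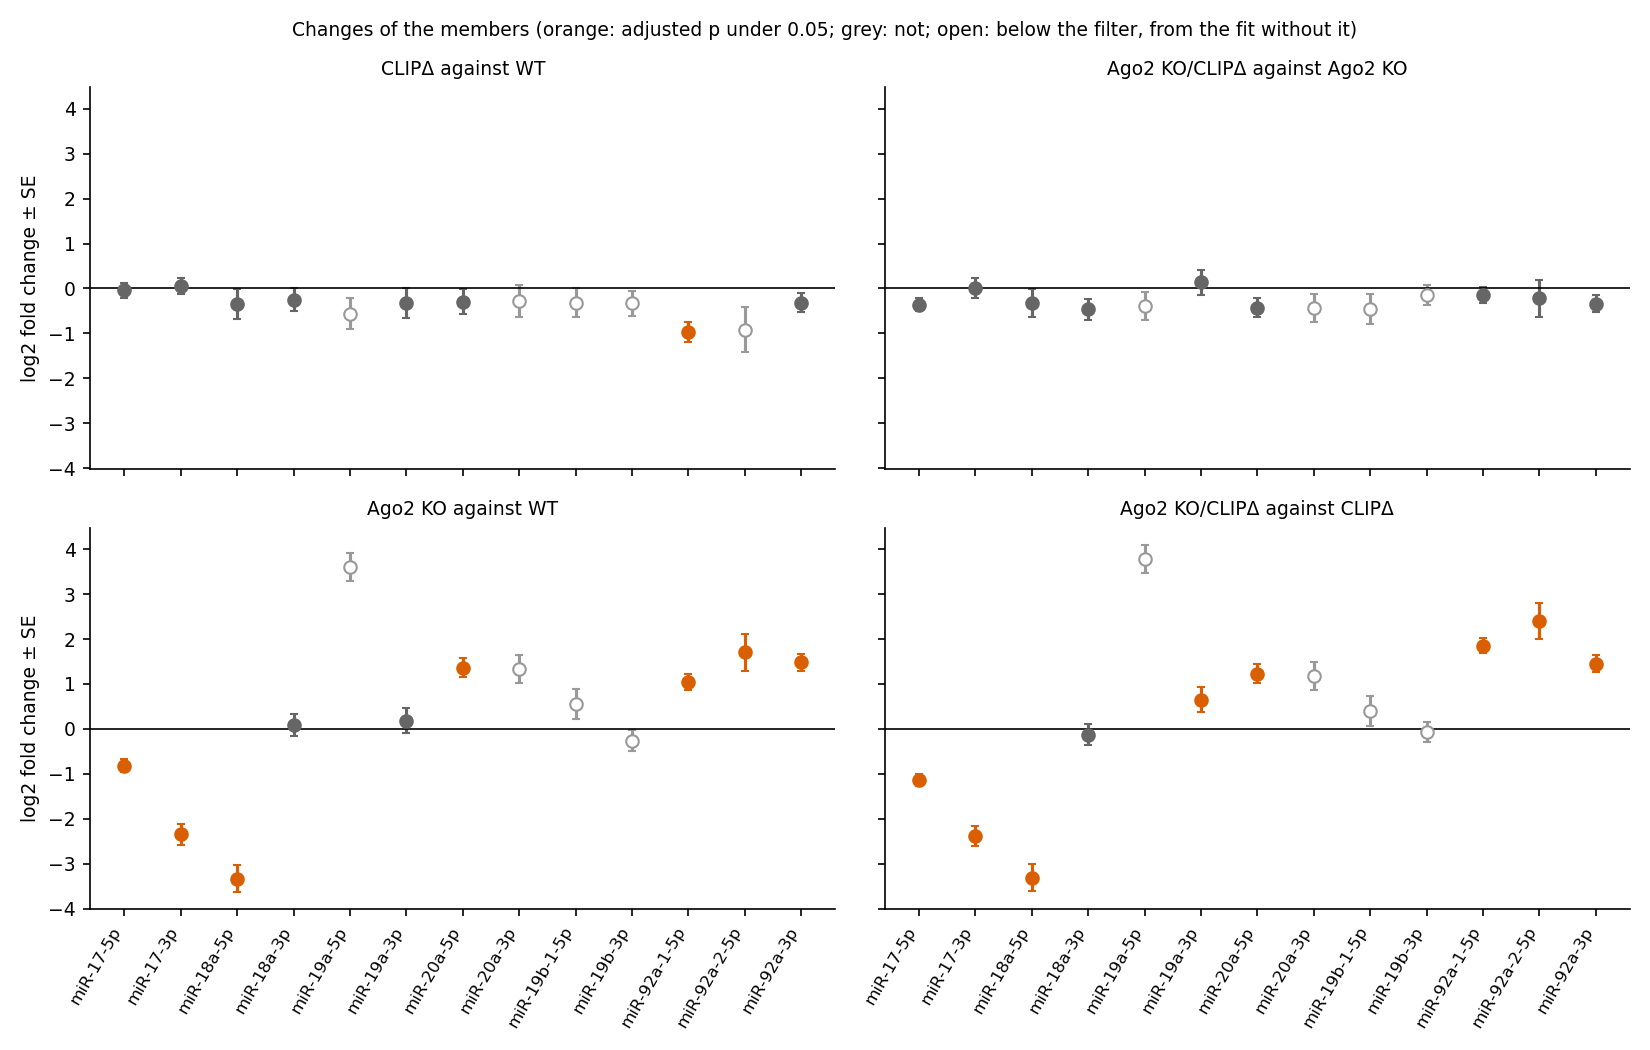
log2 fold change ± SE of the 13 members, in hairpin order, in the 4 pairwise contrasts (limma; orange points have an adjusted p under 0.05, grey ones do not, open ones were below the filter and come from the fit without it). In the upper panels, with and without the deletion in *Ago2* mRNA, the 1 orange point is miR-92a-1-5p at -0.96, while in the lower panels, without against with *Ago2*, the points run from -3.33 for miR-18a-5p to 3.78 for miR-19a-5p.

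The second comparison for loss of *Ago2*, *Ago2* KO/CLIPΔ against CLIPΔ, uses other libraries than *Ago2* KO against WT. Here 3 members fell and 5 rose of the 9 tested, the 5 including miR-92a-2-5p with the same limit. This stood beside 83.1% of all miRNAs called (35.3% lower and 47.8% higher), with a median log2 change of 0.31 over all miRNAs. miR-18a-5p was at 43.1, 36.5, 36.1 and 24.0 TPM in *Ago2* KO/CLIPΔ and fell by 3.32 on the log2 scale (SE 0.30, adjusted p = 1.42e-08). miR-17-3p was at 63.7, 66.7, 64.2 and 40.4 TPM (log2 change -2.39, SE 0.22, adjusted p = 2.00e-08), and miR-17-5p fell by 1.14 (SE 0.14, adjusted p = 6.52e-07). Each stood below every CLIPΔ library.

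Among those that rose, miR-92a-1-5p increased by 1.85 on the log2 scale (SE 0.18, adjusted p = 2.18e-08), miR-92a-2-5p by 2.40 (SE 0.41, adjusted p = 3.02e-05), miR-92a-3p by 1.45 (SE 0.19, adjusted p = 1.21e-06) and miR-20a-5p by 1.23 (SE 0.21, adjusted p = 3.25e-05). miR-92a-2-5p was at 272, 266, 204 and 197 TPM in *Ago2* KO/CLIPΔ, and it again passed the filter only through the *Ago2* KO genotypes. miR-19a-3p was at 400, 468, 398 and 430 TPM against 243, 524, 269 and 152 TPM in CLIPΔ (log2 change 0.65, SE 0.28, adjusted p = 0.0379). This last call was lost with median centring (adjusted p = 0.0703), with let-7 left out of the scaling sum (adjusted p = 0.0698), with the 2 groups fitted alone (adjusted p = 0.0685) and on leaving out any 1 of the 8 libraries other than CLIPΔ B, with the highest adjusted p without CLIPΔ D (log2 change 0.38, adjusted p = 0.161). miR-19a-5p, from the fit without a filter, was at 167, 200, 91.5 and 83.2 TPM (log2 change 3.78, SE 0.31, adjusted p = 1.85e-09).

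Ratios between members of 1 library do not depend on how libraries are scaled, so they were compared next, in 17 ratios and 4 contrasts. With 4 libraries against 4, the two-sided exact permutation test cannot give a p below 0.0286, and 31 of the 68 tests reached that value. After adjustment over the 68 tests it became 0.0627, so none passed 0.05. The ratios are therefore given as values.

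The order of the leading pair turned over with *Ago2* genotype. The ratio of miR-20a-5p to miR-17-5p was 0.586 ± 0.074 (SD, n = 4) in WT and 0.498 ± 0.12 in CLIPΔ, with miR-17-5p the higher in all 8 libraries. It was 2.64 ± 0.085 in *Ago2* KO and 2.51 ± 0.13 in *Ago2* KO/CLIPΔ, with miR-20a-5p the higher in all 8. As a share of the members cut only from chromosome 14, miR-20a-5p went from 28.2% ± 3.7 in WT to 55.5% ± 0.97 in *Ago2* KO, and miR-17-5p from 48.1% ± 0.60 to 21.1% ± 0.74.

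The arms of a hairpin also differed in their ratio. The ratio of miR-18a-5p to miR-18a-3p was 2.99 ± 1.1 in WT and 3.22 ± 2.4 in CLIPΔ, where every library was above 1. It was 0.270 ± 0.090 in *Ago2* KO and 0.285 ± 0.057 in *Ago2* KO/CLIPΔ, so that the 3p arm was the more abundant in those 8 libraries. The ratio of miR-19a-5p to miR-19a-3p was 0.0392 ± 0.012 in WT and 0.459 ± 0.18 in *Ago2* KO. For miR-17 the ratio of 3p to 5p was 0.0612 ± 0.0065 in WT and 0.0220 ± 0.0091 in *Ago2* KO, without overlap. By contrast, the ratio of miR-20a-5p to miR-20a-3p was 247 ± 67 in WT and 233 ± 32 in *Ago2* KO, a difference of 0.02 on the log2 scale (exact permutation p = 0.943).

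For the deletion in *Ago2* mRNA, the ratio of miR-92a-1-5p to miR-17-5p was 0.227 ± 0.072 in WT and 0.118 ± 0.029 in CLIPΔ, and no library of one overlapped the other (log2 difference -0.93, exact permutation p = 0.0286, adjusted p = 0.0627). It was 0.794 ± 0.065 in *Ago2* KO and 0.919 ± 0.086 in *Ago2* KO/CLIPΔ. The ratio of miR-20a-5p to miR-17-5p differed between CLIPΔ and WT by -0.26 on the log2 scale (exact permutation p = 0.257, adjusted p = 0.380).

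**Figure D4:**
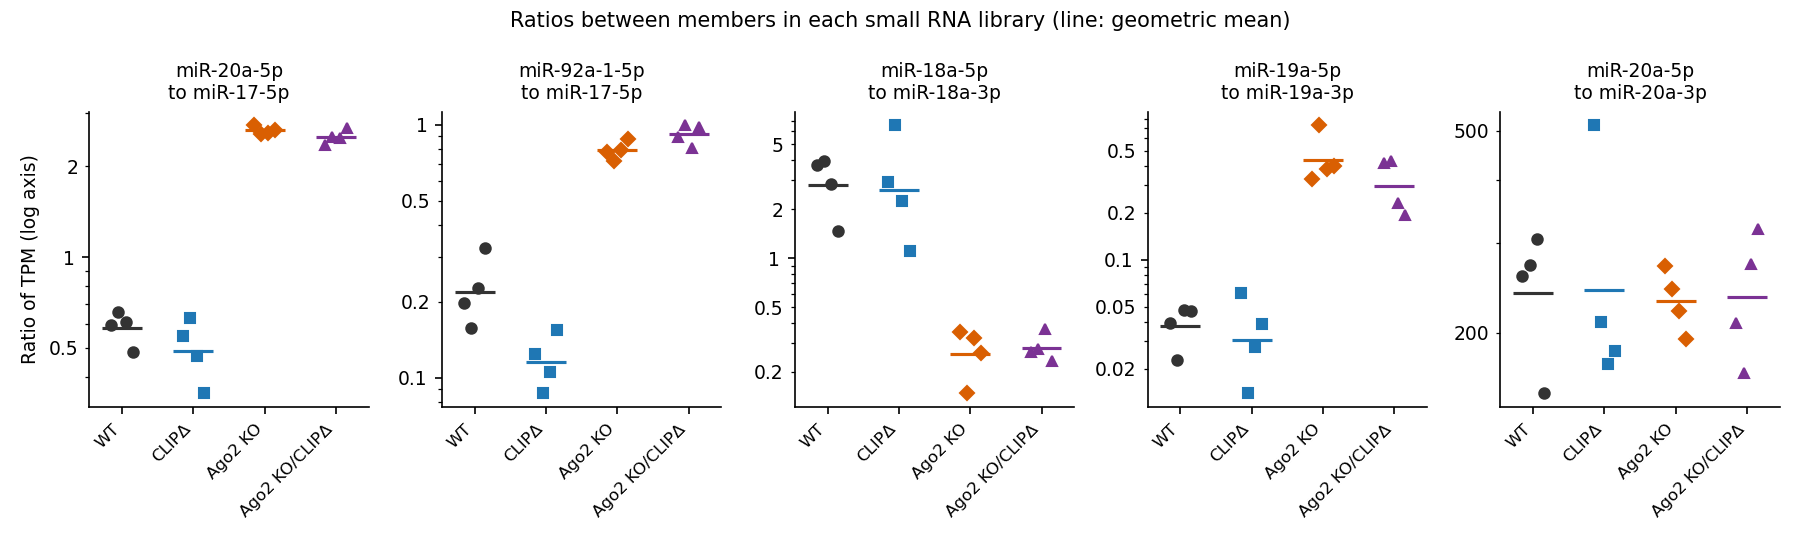
Ratios between members in each of the 16 small RNA libraries (linear ratio of TPM on a log axis, 1 point per library, line at the geometric mean). The ratio of miR-20a-5p to miR-17-5p is below 1 in all WT and CLIPΔ libraries and above 1 in all *Ago2* KO and *Ago2* KO/CLIPΔ libraries, that of miR-18a-5p to miR-18a-3p is the reverse, and that of miR-20a-5p to miR-20a-3p overlaps across all 4 genotypes.

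The 13 members together accounted for 2.21% ± 0.27 (SD, n = 4) of the miRNA total in WT, 1.84% ± 0.075 in CLIPΔ, 4.61% ± 0.63 in *Ago2* KO and 3.63% ± 0.46 in *Ago2* KO/CLIPΔ. Most of the difference lay in miR-92a-3p, which both clusters encode. Without it the sums were 1.03% ± 0.12, 0.896% ± 0.17, 1.34% ± 0.076 and 1.07% ± 0.12. The opposite shifts of miR-17-5p and miR-20a-5p left their joint share at 0.778% ± 0.12 in WT, 0.718% ± 0.14 in CLIPΔ, 1.01% ± 0.068 in *Ago2* KO and 0.759% ± 0.079 in *Ago2* KO/CLIPΔ.

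The paralogous clusters hold close relatives of the members. In *Ago2* KO against WT 8 of the 10 tested were called, beside 82.7% of all miRNAs, and they too moved in both directions. Those of the chromosome X cluster were as follows. miR-18b-5p fell by 1.72 on the log2 scale (SE 0.41, adjusted p = 0.000906), as its relative miR-18a-5p had fallen, and miR-20b-5p rose by 0.70 (SE 0.18, adjusted p = 0.00204), as miR-20a-5p had risen. miR-363-5p rose by 0.90 (SE 0.13, adjusted p = 5.17e-06), and its partner arm miR-363-3p was not called (log2 change 0.50, adjusted p = 0.0642). miR-106a-5p, 1 base away from miR-17-5p, was at 1764 ± 235 TPM in WT and 1798 ± 171 TPM in *Ago2* KO (log2 change 0.03, SE 0.14, not called). In the chromosome 5 relatives of the miR-106b-25 cluster, miR-93-5p fell by 1.30 (SE 0.17, adjusted p = 2.01e-06), miR-106b-5p by 1.94 (SE 0.19, adjusted p = 4.43e-08) and miR-25-3p, which shares the miR-92a seed, by 0.39 (SE 0.11, adjusted p = 0.00301). miR-106b-3p fell by 1.13 (SE 0.17, adjusted p = 1.02e-05). miR-25-5p, the arm opposite miR-25-3p, rose by 2.88 (SE 0.29, adjusted p = 5.91e-08), the largest change of the 10. In CLIPΔ against WT limma called none of the 10 paralogues tested, and 1 had an unadjusted p under 0.05, beside 39.6% of all miRNAs.

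The ratio of miR-20a-5p to its relative miR-20b-5p was 0.685 ± 0.035 in WT and 1.09 ± 0.11 in *Ago2* KO, and that of miR-18a-5p to miR-18b-5p was 1.89 ± 0.77 and 0.598 ± 0.20. In both pairs the groups did not overlap. miR-17-5p stood at 0.384 ± 0.097 of miR-93-5p in WT and 0.524 ± 0.025 in *Ago2* KO, and at 4.52 ± 0.83 and 9.84 ± 1.7 times miR-106b-5p.

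Among the 240 miRNAs outside the cluster that passed the filter, those whose level followed the mean standardised level of the 9 members most closely over the 16 libraries were miR-295-5p (Pearson r = 0.81), miR-302a-5p (r = 0.75), miR-125b-1-3p (r = 0.74), miR-135b-3p (r = 0.74) and miR-450b-3p (r = 0.69). These coefficients describe libraries that share genotype and a like number of miRNA reads. The members themselves followed their own mean less evenly, from r = 0.71 for miR-92a-1-5p to r = -0.34 for miR-17-3p.

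The host transcript Mir17hg was measured by RNA-seq and gives the level of the precursor gene. It stood at 93.5 and 46.1 TPM in WT, 56.4 and 30.8 TPM in CLIPΔ, 11.1, 13.8, 7.06 and 7.94 TPM in *Ago2* KO, and 7.32, 6.87, 6.72 and 8.20 TPM in *Ago2* KO/CLIPΔ. Every *Ago2* KO library was below every library with *Ago2*. Mir17hg fell by 2.65 on the log2(TPM + 1) scale in *Ago2* KO against WT (SE 0.31, adjusted p = 7.98e-05 by limma over 11287 genes) and by 2.37 in *Ago2* KO/CLIPΔ against CLIPΔ (SE 0.31, adjusted p = 0.000175). These contrasts called 56.4% and 54.9% of all genes, 42.4% and 42.1% lower, with a median log2 change of -0.26 and -0.25. The host thus fell where miR-20a-5p and miR-92a-1-5p, which are cut from it alone, rose as a share of miRNAs. Other members cut from it alone, miR-17-5p, miR-17-3p and miR-18a-5p, fell in both contrasts, and miR-18a-3p was called in neither. Drosha cuts the host to release the hairpins, so its RNA-seq level is not a measure of transcription alone.

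For the deletion in *Ago2* mRNA the host was not called in the fits without a replicate block. The log2 change was -0.64 in CLIPΔ against WT (SE 0.44, adjusted p = 1.00), where limma called 0 of 11642 genes (0%) and 604 (5.19%) had an unadjusted p under 0.05. In both genotypes library 1 was higher than library 2. With replicate numbers as a block, 333 genes were called in this contrast and Mir17hg was among them, but the paired libraries share only a number. The log2 change was -0.37 in *Ago2* KO/CLIPΔ against *Ago2* KO (SE 0.25, adjusted p = 0.669), where 0.877% of genes were called (99 genes, or 804 with the replicate block).

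**Figure D5:**
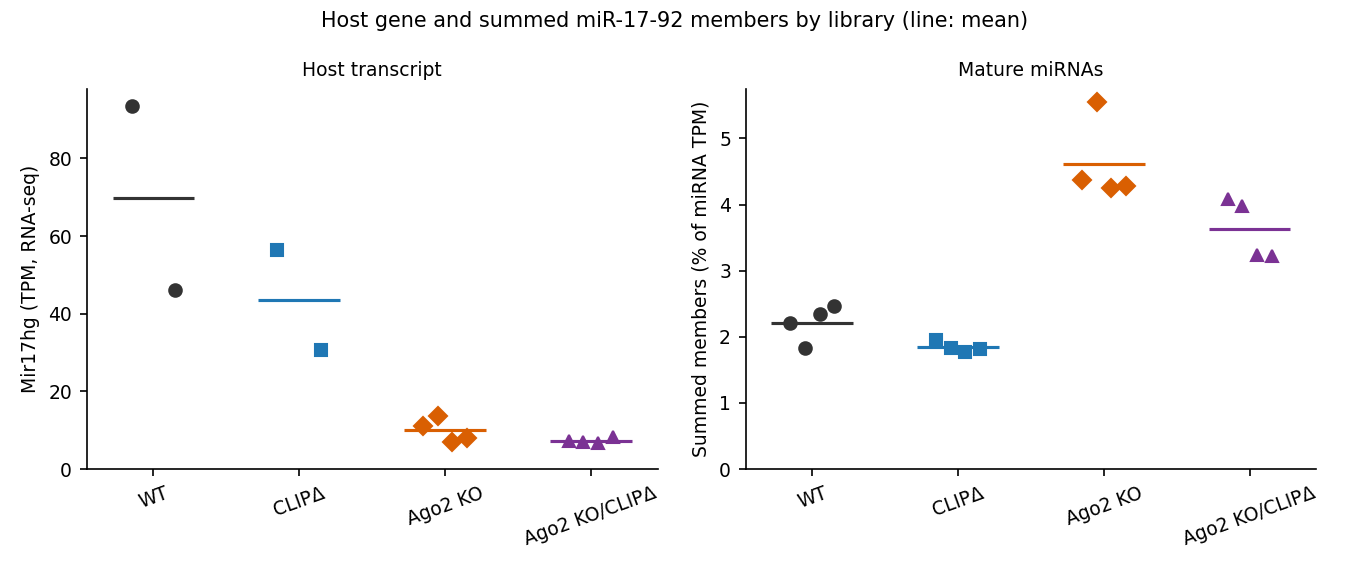
Level of the host transcript Mir17hg in the 12 RNA-seq libraries (left, TPM) and summed level of the 13 mature members in the 16 small RNA libraries (right, percent of miRNA TPM), with 1 point per library and a line at the mean. The host is lowest in the *Ago2* KO genotypes, at 6.72 to 13.8 TPM, while the summed members are highest there, at 3.22% to 5.56%. Most of the difference in the sum lies in miR-92a-3p, which chromosome X also encodes. Without it the sums were 0.887% to 1.14% in WT and 0.729% to 1.13% in CLIPΔ. They were 1.27% to 1.44% in *Ago2* KO and 0.942% to 1.21% in *Ago2* KO/CLIPΔ, so the latter overlapped WT.

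The knockouts were checked on *Ago2* mRNA itself, which stood at 28.2 and 21.6 TPM in WT, 27.3 and 20.3 TPM in CLIPΔ, and 1.51 to 2.87 TPM in the 8 libraries without *Ago2*. It fell by 3.13 on the log2 scale in *Ago2* KO against WT (SE 0.19, adjusted p = 5.34e-06).

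Of the 5 listed regulators of the cluster, 2 fell in *Ago2* KO against WT and none rose, beside 42.4% of all genes lower and 14% higher, so that the count is near the background. They were E2f3 (log2 change -1.15, SE 0.12, adjusted p = 4.96e-05) and E2f2 (-0.77, adjusted p = 0.00272). Myc was at 48.5 and 77 TPM in WT and 41.6 to 75.6 TPM in *Ago2* KO (log2 change -0.13, adjusted p = 0.720), and turned to 0.22 with libraries 1 and 2 alone. Mycn was at 218 and 131 TPM in WT and 91.5 to 148 TPM in *Ago2* KO (log2 change -0.57, adjusted p = 0.102), and passed without WT library 2 (log2 change -0.94, adjusted p = 0.0322).

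Of 13 listed genes that cut and load miRNAs, 11 were tested. Of these 7 fell and 1 rose, beside 42.4% of all genes lower and 14% higher. The 7 include *Ago2*, the gene deleted in these cells, whose fall was fixed by the design. Dicer1, which cuts the hairpin loop, fell by 1.16 (SE 0.12, adjusted p = 5.13e-05), and Hnrnpa1, an RNA-binding protein known to aid the cutting of pri-miR-18a, fell by 0.93 (SE 0.11, adjusted p = 8.69e-05), from 842 and 948 TPM in WT to 420 to 510 TPM in *Ago2* KO. Dgcr8, the partner of Drosha, fell by 0.93 (SE 0.23, adjusted p = 0.00516), a call lost without WT library 1 (log2 change -0.61, adjusted p = 0.0939). Drosha was called lower at a log2 change of -0.21 (adjusted p = 0.0448), a call lost on leaving out any 1 library. The Argonaute Ago1 fell by 0.59 (adjusted p = 0.00123), and the Dicer cofactor Tarbp2 rose by 0.65 (adjusted p = 0.00162). Isy1 (-0.31, adjusted p = 0.139), Xpo5 (-0.18, adjusted p = 0.0859) and Khsrp (-0.05, adjusted p = 0.686) were not called. A link between these genes and the levels of the members was not tested. The median log2 change of the list, with *Ago2* in it, was -0.31, beside -0.26 over all genes.

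Of 23 reported targets of the cluster, 20 were tested, of which 14 fell and none rose, beside 42.4% of all genes lower and 14% higher. The median log2 change of the targets was -0.52, beside -0.26 over all genes. E2f2 and E2f3, counted above as regulators, are also among the 14. Cdkn1a, a cell cycle inhibitor, fell by 0.84 (SE 0.13, adjusted p = 0.000438) and Bcl2l11 by 0.52 (SE 0.15, adjusted p = 0.00997). The call of Bcl2l11 was lost without WT library 1 (adjusted p = 0.143). In *Ago2* KO/CLIPΔ against CLIPΔ 13 of the 20 fell and 1 rose. The one that rose was the integrin Itga5 (log2 change 0.81, SE 0.22, adjusted p = 0.00789). There 42.1% of all genes were called lower and 12.8% higher. In neither contrast for the deletion in *Ago2* mRNA did limma call any target, regulator or processing gene. Of all genes it called 0% in CLIPΔ against WT and 0.877% in *Ago2* KO/CLIPΔ against *Ago2* KO, so a count of 0 says little about these lists. An unadjusted p under 0.05 was found for 1 of 35 of the listed genes in CLIPΔ against WT (beside 5.19% of all genes). In *Ago2* KO/CLIPΔ against *Ago2* KO it was found for 2 of 33 (beside 11% of all genes there).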

How the data were processed

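Small RNA-seq (16 libraries) and RNA-seq (12 libraries) were used as TPM values that the authors deposited, with 1 column per library. Per the study's methods, the authors aligned reads with HISAT2 2.1.0 (build mm10), counted them with HTSeq and converted the counts to TPM. The Trim71 CLIP-seq peak list, with the count of reads per peak that the authors deposited for both replicates together, was used only for peak positions.

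The number of miRNA reads in each library was inferred from the steps between low values, of which over 99% were whole reads within 0.05. miRNA values were rescaled to a sum of 1000000 per library, and log2(value + 1) was fitted with limma 3.58.1 in R 4.3.3, with a trend in the prior variance, for miRNAs of mean TPM 100 or more and genes of mean TPM 1 or more. CLIPΔ against WT used the libraries of those 2 groups, and the other contrasts used all libraries. Values of p were adjusted by Benjamini-Hochberg over all features tested, at 0.05. Fold changes on this scale understate those of low features. Ratios were compared by two-sided exact permutation. Fits were tested on simulated data made from these libraries: a log2 change of 1 was recovered for 86.7% of changed miRNAs in CLIPΔ against WT, 83.3% in *Ago2* KO against WT and 10.0% of changed genes in RNA-seq CLIPΔ against WT.

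Same-numbered or same-lettered libraries deviated together from their group means (r = 0.32 to 0.73 for WT with CLIPΔ, 0.17 to 0.39 for *Ago2* KO with *Ago2* KO/CLIPΔ, and 0.32 to 0.43 for the latter in RNA-seq), so they were treated as pairs in the block fits. Some libraries of unlike number correlated as highly (r up to 0.41 in small RNA and 0.47 in RNA-seq, within libraries 1 and 2 or within 3 and 4). Letters come from column names, not labels. The members and lists were chosen with earlier results of these data known. The genes open to naming were all members, their host, the members of both paralogous clusters, the listed regulators, processing genes and targets (1 listed gene is not reported here), and the 5 miRNAs most alike in pattern. The labels call the replicates biological and do not name separate cultures.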

Additional observations from a re-analysis of the deposited data

Results flagged for a closer look

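In 14 of 156 groups of 4 libraries, 1 library stood apart from the other 3 by Dixon's test. For normal values chance gives about 1 in 20. The values were not log-transformed, and ratios and sums reuse the same members, so the count is not a test of an excess over chance. miR-92a-3p was 42016 TPM in *Ago2* KO library 2 against 29227 to 30210 TPM in the others, which also set the summed members there at 5.56% against 4.25% to 4.37%. In CLIPΔ library A, miR-19a-5p was 14.8 TPM against 5.86 to 7.37 TPM, its ratio to miR-17-5p 0.00343 against 0.00129 to 0.00151, the ratio of miR-17-3p to miR-17-5p 0.0859 against 0.0583 to 0.0592, and that of miR-20a-5p to miR-20a-3p 514 against 173 to 210. miR-92a-2-5p was 46.1 TPM in WT library B against 98.7 to 103 TPM, and the ratio of miR-18a-3p to miR-17-5p was 0.0584 in WT library D against 0.0255 to 0.0275.

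In *Ago2* KO/CLIPΔ library 4, miR-17-3p was 40.4 TPM against 63.7 to 66.7 TPM and the ratio of miR-18a-5p to miR-17-5p 0.0132 against 0.0168 to 0.0170. In *Ago2* KO library 4, miR-19b-1-5p was 13.2 TPM against 22.2 to 22.6 TPM and the ratio of miR-17-5p to miR-93-5p 0.487 against 0.533 to 0.542. The ratio of miR-17-5p to miR-106b-5p was 12.3 in *Ago2* KO library 2 against 8.70 to 9.27, and E2f3 was 4.58 TPM in *Ago2* KO/CLIPΔ library 1 against 4.77 to 4.80 TPM.

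The change of miR-92a-1-5p on deletion of the Trim71-binding region differed between cells with and without *Ago2* by an interaction of 0.82 on the log2 scale (limma, adjusted p = 0.0106).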

How the results depend on the processing

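Under alternatives other than leaving out a library, 211 values of members kept their direction and their side of the threshold, 8 changed sign, 11 passed it and 3 no longer did. Without a filter on low values, limma called 136 miRNAs in CLIPΔ against WT, 363 in *Ago2* KO against WT, 83 in *Ago2* KO/CLIPΔ against *Ago2* KO, 377 in *Ago2* KO/CLIPΔ against CLIPΔ and 211 in the interaction, since 507 were tested. CLIPΔ against WT gave 115 calls in a fit on all 16 libraries, and *Ago2* KO/CLIPΔ against *Ago2* KO gave 121 in a fit of those groups alone. Median centring split the calls 32 higher and 28 lower in CLIPΔ against WT (44 and 19 otherwise) and 43 and 25 in *Ago2* KO/CLIPΔ against *Ago2* KO (48 and 7 otherwise). In the latter it called miR-17-5p (adjusted p = 0.0171) and miR-20a-5p (adjusted p = 0.0386).

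With the replicate block, counts were 125 for CLIPΔ against WT and 144 for *Ago2* KO/CLIPΔ against *Ago2* KO in small RNA, and 333, 4142 and 804 genes in RNA-seq for CLIPΔ against WT, *Ago2* KO against WT and *Ago2* KO/CLIPΔ against *Ago2* KO. It called Mir17hg in CLIPΔ against WT (adjusted p = 0.0427), where the 2 pairs (r = 0.71) share only a number, and lost Drosha (adjusted p = 0.531) and Bcl2l11 (adjusted p = 0.134) in *Ago2* KO against WT. Beside those given with the results it changed no other call. A block could not be fitted for small RNA between libraries named by letter and by number. As alternatives chosen after seeing the data, RNA-seq libraries 1 and 2 alone gave 0 calls and libraries 3 and 4 alone 4238 in *Ago2* KO/CLIPΔ against *Ago2* KO. The cause was not tested.

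Signs that turned were all of values not called. With median centring they were, on the log2 scale, miR-17-3p in CLIPΔ against WT (-0.15), in *Ago2* KO/CLIPΔ against *Ago2* KO (-0.093) and in the interaction (0.083), miR-18a-3p (-0.18) and miR-19a-3p (-0.077) in *Ago2* KO against WT, and miR-92a-3p in the interaction (0.092). With let-7 left out of the scaling sum they were miR-17-5p in CLIPΔ against WT (0.049) and miR-18a-5p in the interaction (-0.074). Myc in *Ago2* KO against WT was 0.22 both with the block and with libraries 1 and 2 alone.

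Leaving out each library in turn gave 0 to 186 (without CLIPΔ library 2) genes in RNA-seq CLIPΔ against WT, 4150 (without WT library 1) to 6453 in *Ago2* KO against WT, 3648 (without CLIPΔ library 1) to 6200 in *Ago2* KO/CLIPΔ against CLIPΔ, and 21 (without *Ago2* KO library 1) to 68 in *Ago2* KO/CLIPΔ against *Ago2* KO, all below the 99 of the full set. miR-17-5p in CLIPΔ against WT ran from -0.12 to 0.014 and miR-17-3p there from -0.043 to 0.15. In *Ago2* KO against WT miR-18a-3p ran from -0.057 to 0.29 and Myc from -0.46 to 0.19. In *Ago2* KO/CLIPΔ against *Ago2* KO miR-17-3p ran from -0.19 to 0.21 and miR-19a-3p from -0.063 to 0.28. In the interaction miR-17-3p ran from -0.24 to 0.17, miR-18a-5p from -0.28 to 0.30, miR-20a-5p from -0.34 to 0.071 and miR-92a-3p from -0.18 to 0.11. With a library left out, the smallest p that the ratio tests can give is no lower. A pseudocount of 10 moved 4 ratios with miR-19a-5p or miR-20a-3p by more than their SD, without a turn of sign. The fewer miRNA reads of the *Ago2* KO libraries limit what can be said of the scarcest members.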
